A study of Homo sapiens with 21 samples.

Results

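Divergent transcripts are long non-coding RNAs (lncRNAs) that start beside a neighbouring gene and run away from it on the other strand, and they carry that gene's symbol with the ending -DT. The -DT lncRNAs described here were the rows of the count table with such a symbol in GENCODE release 44, the biotype lncRNA and at least 1 CPM, a read count scaled to the library's total, in at least 3 of the 21 libraries. Of 588 -DT lncRNA genes in the table of 60671 genes, 189 met this rule, and each was set beside its partner, the gene whose symbol stands before -DT. All 189 were therefore among the 16556 genes tested, along with 186 of their 188 partners and 1893 other lncRNA genes. The rule used no difference between treatments, but 18 of the 189 reached 1 CPM in fewer than 3 of the 12 libraries without tunicamycin, so that tunicamycin libraries helped to admit them.

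The libraries came from 7 groups of 3 replicates. OCI-AML3, an established acute myeloid leukaemia line, was untreated at 0 h, or given DMSO or tunicamycin for 4 h or 24 h, and HEK293T, an established embryonic kidney line, was given DMSO or tunicamycin for 24 h. The dose of tunicamycin was 1 μg/mL, DMSO is its solvent, and the labels name no genetic change in either line. No 4 h libraries of HEK293T were used here, so a question of time can be put to OCI-AML3 only. The labels do not say whether replicates were separate cultures, so that p-values measure the spread between these libraries, which may be technical.

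At many promoters of mammalian genes, transcription begins in both directions from the same open stretch of DNA. The transcript that runs upstream is usually short-lived and scarce, and some are spliced, polyadenylated and annotated as -DT lncRNAs. Tunicamycin blocks N-linked glycosylation in the endoplasmic reticulum (ER), and misfolded proteins then start the unfolded protein response (UPR) through the sensors PERK, IRE1 and ATF6. These raise the transcription of ER chaperone, amino acid and tRNA charging genes, and the question put here is whether the lncRNAs on the other side of such promoters, and of promoters in general, changed with their partners.

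5 of the -DT lncRNAs were called in the same direction as their partner above the counting limit, and RefSeq promoter windows were at hand for 4 of these. Each window holds 250 bases before and 50 after the lncRNA's start, and they are printed because partner and lncRNA share this stretch or lie just beside it. Capitals mark CCAAT, read on either strand, the element that also forms the first part of the ER stress response element. On GRCh38.p14 they lie at chr2:88627579-88627878 (plus strand) for EIF2AK3-DT, chr12:92145835-92146134 (plus) for BTG1-DT, chr13:95676876-95677175 (minus) for DNAJC3-DT and chr7:155297609-155297908 (minus) for INSIG1-DT.
EIF2AK3-DT: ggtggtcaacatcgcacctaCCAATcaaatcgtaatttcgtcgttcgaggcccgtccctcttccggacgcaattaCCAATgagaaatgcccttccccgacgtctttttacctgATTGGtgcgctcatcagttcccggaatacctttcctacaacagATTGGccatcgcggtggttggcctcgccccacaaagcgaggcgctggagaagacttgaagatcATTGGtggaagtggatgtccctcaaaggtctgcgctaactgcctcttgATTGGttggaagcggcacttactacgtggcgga
BTG1-DT: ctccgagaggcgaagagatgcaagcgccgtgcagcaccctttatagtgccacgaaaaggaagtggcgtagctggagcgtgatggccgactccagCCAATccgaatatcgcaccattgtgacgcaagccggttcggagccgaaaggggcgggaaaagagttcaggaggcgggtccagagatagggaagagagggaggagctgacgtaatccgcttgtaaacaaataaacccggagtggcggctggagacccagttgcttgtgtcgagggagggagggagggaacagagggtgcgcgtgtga
DNAJC3-DT: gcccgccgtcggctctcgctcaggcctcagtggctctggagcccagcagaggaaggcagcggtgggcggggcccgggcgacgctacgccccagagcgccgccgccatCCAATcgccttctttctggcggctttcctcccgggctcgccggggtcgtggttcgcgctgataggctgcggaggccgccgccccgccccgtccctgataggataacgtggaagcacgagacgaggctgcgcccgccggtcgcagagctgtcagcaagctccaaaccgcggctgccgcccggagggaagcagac
INSIG1-DT: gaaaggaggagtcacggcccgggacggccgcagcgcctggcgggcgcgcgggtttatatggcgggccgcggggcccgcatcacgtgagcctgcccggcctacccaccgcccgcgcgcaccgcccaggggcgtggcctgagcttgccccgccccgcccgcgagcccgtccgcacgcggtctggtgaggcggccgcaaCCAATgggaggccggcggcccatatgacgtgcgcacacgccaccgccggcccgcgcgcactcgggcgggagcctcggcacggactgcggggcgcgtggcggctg

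The window of EIF2AK3-DT held 6 CCAAT letters and each of the other three held 1. RefSeq starts of lncRNA and partner were 365 bases apart for EIF2AK3-DT, 239 for BTG1-DT, 220 for INSIG1-DT and 214 for DNAJC3-DT. Over 171 windows of 152 -DT lncRNAs, 56 windows or 32.7% held CCAAT, against 34.3% of the 17143 windows of 11758 tested genes and 39.4% of the 221 windows of 158 partners. The full ER stress response element, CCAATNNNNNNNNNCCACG, was in 0 windows of -DT lncRNAs and in 0.105% of all windows, and the shorter form ATTGGNCCACG in 0 and 0.0817%. The XBP1 and ATF6 element TGACGTGG was in the windows of COPB2-DT and CTBP1-DT, 1.17% of windows against 0.834% of all. The C/EBP-ATF element TGATGNAAT, bound by ATF4 and CHOP, was in 0 windows of -DT lncRNAs and 0.56% of all, and among partners in those of GARS1 and TARS1. The cAMP response element TGACGTCA was in 6 windows of -DT lncRNAs, 3.51% against 2.74% of all. Each motif was sought on both strands, the CCAAT count includes any CCAAT inside a longer motif, and a match is a match of letters only. These windows were rich in G and C, with a median GC content of 68.3% and 31 CpG dinucleotides, against 64.7% and 25 over all windows.

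In GENCODE release 44, 188 of the 189 lay on the strand opposite to their partner. The exception was 1 of 2 genes that both carry the symbol TNFRSF10A-DT. The starts of lncRNA and partner were at most 1000 bases apart for 169, of which 119 pairs did not overlap and 50 overlapped at their starts, and the median distance was 67 bases. The starts of the other 20 lay farther apart or overlapped by more, as for EIF2AK3-DT, at -63979 bases between the outermost GENCODE starts, where a negative distance means overlap, and GARS1-DT, at -14753 bases. 56 shared exonic bases with their partner and 97 with any gene, and for 50 this was more than 10% of the exonic length. The sources used here do not state whether reads were counted by strand, and without strand reads of 2 overlapping genes cannot be told apart.

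Most -DT lncRNAs were scarce. Their mean over the 21 libraries had a median of 1.85 CPM (quartiles 0.935 and 3.83), against 35.4 CPM for partners and 1.9 CPM for other lncRNA genes tested. Per kilobase of exon the median was 0.667 for the lncRNAs and 6.8 for partners, and within a pair the partner was a median of 10.6 times higher. Exonic lengths and shared bases are those of GENCODE release 44, and the gene models on which the reads were counted may differ from these. 13 of 187 lncRNAs exceeded their partner per kilobase, among them MVP-DT, RAB30-DT, CABP1-DT, WDR5B-DT and EPM2A-DT, whose ratios were 12.3, 7.44, 4.38, 4.29 and 2.31. 72 of the 189 reached 1 CPM in all 21 libraries, 27 did so in HEK293T libraries only and 23 in OCI-AML3 libraries only. A count of 0 allows up to 3 counts, which is 0.15 to 0.217 CPM at the library totals of 13838466 to 19961798 counts (median 16657737), and this limit covers counting error only.

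**Figure D1:**
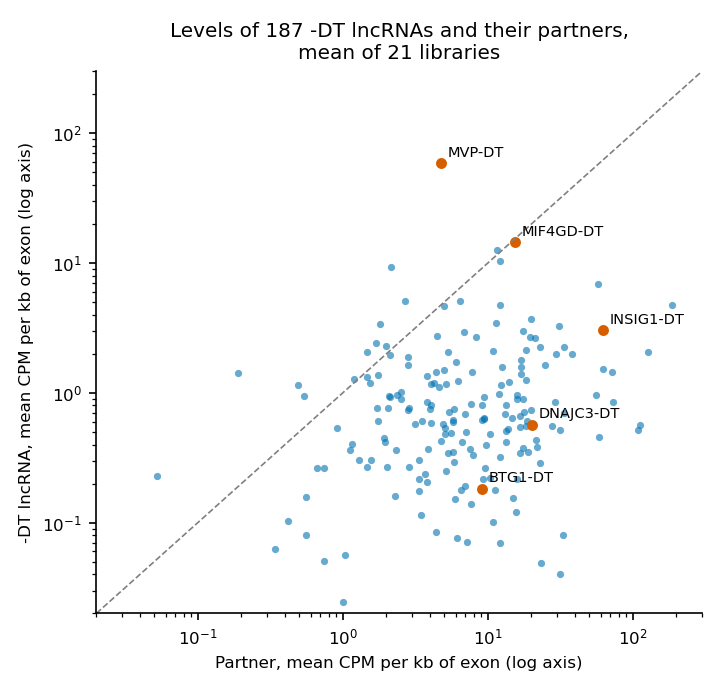
Mean level of each -DT lncRNA (vertical axis) against its partner (horizontal axis), both in CPM per kilobase of exon over the 21 libraries on log axes, with a dashed line of equal levels and 5 pairs labelled in orange. Of the 187 pairs, 13 lie above the line.

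MVP-DT, beside the gene for the major vault protein, stood apart at 237 CPM, with a range of 147 to 302 CPM. Of its exonic bases 62% lie in exons of other genes, none of them in MVP. MVP itself was at 29.1 to 49.2 CPM in OCI-AML3 and at 0.359 to 0.919 CPM in HEK293T, where MVP-DT was at 206 to 229 CPM. MIF4GD-DT (36.5 CPM), NIPBL-DT (32.9), WDR5B-DT (26.9), IL10RB-DT (23.5), UBA6-DT (19.9), CTBP1-DT (19.7), GARS1-DT (19.6), BAIAP2-DT (16.2) and TMCC1-DT (15.9) followed in mean level. IL10RB-DT shares 84.6% of its exonic bases with other genes, WDR5B-DT 47.5%, MIF4GD-DT 26.1% and UBA6-DT 14.9%, while NIPBL-DT, BAIAP2-DT and TMCC1-DT share none. Without MVP-DT, all -DT lncRNAs summed to 692.0 to 787.7 CPM in 14 of the 15 OCI-AML3 libraries and to 847.3 in replicate 3 of tunicamycin at 24 h. In HEK293T they summed to 720.8 to 736.0 CPM in DMSO and 786.3 to 801.4 CPM in tunicamycin, ranges that do not overlap. Whether this rise differs from that of other lncRNA genes was not tested. These sums are scaled by TMM, a correction for the make-up of each library, and without it HEK293T lay at 830.6 to 905.2 CPM and OCI-AML3 at 657.6 to 826.9 CPM, so that the order of the lines rests on the scaling.

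The lines carried their labelled identity. Of 6 myeloid markers, PTPRC, SPI1, LAPTM5, CD33 and LYZ ranged from 53.9 to 615 CPM in OCI-AML3 and from 0 to 0.256 CPM in HEK293T, and MPO, of the granules, was at 1.01 to 1.66 CPM in OCI-AML3. The HEK293T markers NEFM, CDH2, KRT18, KRT8 and PAX2 were each higher in every HEK293T library than in any OCI-AML3 library, PAX2 at 0.919 to 1.45 CPM only. Of 58 ER stress genes set down from general knowledge, 49 rose with tunicamycin in OCI-AML3 at 4 h, 40 at 24 h and 45 in HEK293T at 24 h, with median log2 fold changes of 2.05, 1.74 and 1.59. 3 of these 58 genes have a -DT lncRNA among the 189, namely DNAJC3, EIF2AK3 and GARS1.

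Few -DT lncRNAs were called with tunicamycin, and a missing call does not show that a scarce lncRNA was unchanged. A gene was called, and is said to have risen or fallen, where edgeR's quasi-likelihood test gave a p, adjusted after Benjamini and Hochberg over all genes tested, no higher than 0.05 and the log2 fold change lay beyond 1 in either direction. In OCI-AML3 at 4 h, 8 of 189 were called (4.23%), 6 higher and 2 lower, against 5.29% of all genes tested (3.68% higher, 1.6% lower) and 8.98% of other lncRNA genes. At 24 h, 14 were called (7.41%), 12 higher and 2 lower, against 7.18% of all genes (5.03% higher, 2.15% lower) and 9.19% of other lncRNAs. In HEK293T at 24 h, 2 were called (1.06%), both higher, against 2.53% of all genes (1.75% higher, 0.779% lower) and 3.49% of other lncRNAs. These shares were near or below those of all genes, and in OCI-AML3 all genes too were called higher more often than lower. Of the -DT lncRNAs called higher, 2 at 4 h and 3 at 24 h are among the 18 that tunicamycin libraries helped to admit, so the split by direction says nothing particular about -DT lncRNAs. In the same fit, the 143 at 1 CPM in at least 8 libraries included 3 called higher and 2 lower at 4 h, and 9 and 2 at 24 h. Adjusted p alone was at most 0.05 for 27, 39 and 20 of the 189, or 14.3%, 20.6% and 10.6%. These shares lay below the 31.9%, 44.2% and 23.3% of all genes and the 21.4%, 24.1% and 12.2% of other lncRNA genes. The median log2 fold changes of the 189 were -0.02, 0.14 and 0.11, beside 0.00, 0.02 and -0.01 over all genes and -0.04, 0.18 and 0.00 over other lncRNA genes. With 46 of the 189 failing the study's stricter filter of 1 CPM in 8 libraries, counts per library were often low. In bulk RNA, fewer cells with a transcript and less of it per cell cannot be told apart.

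**Figure D2:**
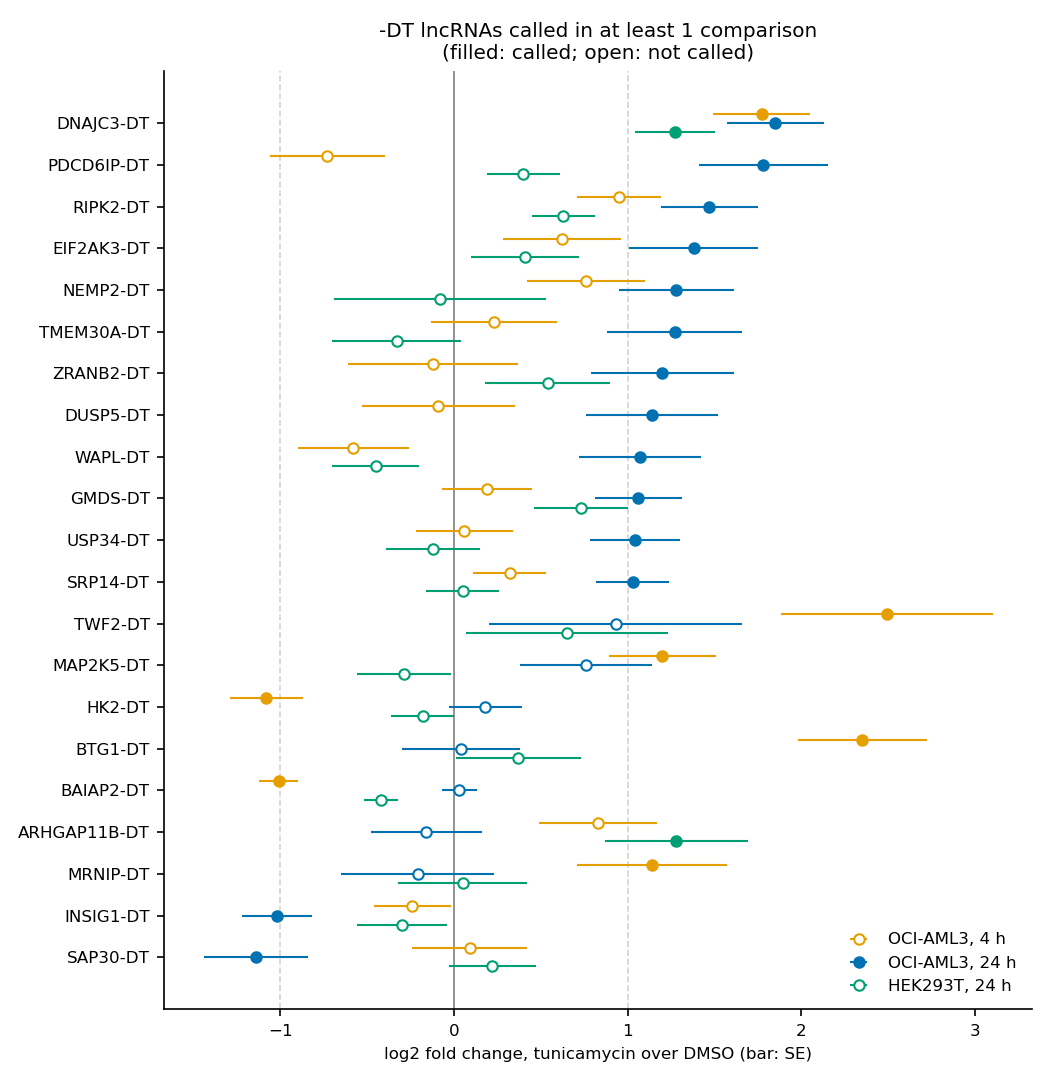
Log2 fold change of tunicamycin over DMSO (points, bars SE) for 21 -DT lncRNAs called in at least 1 of the 3 comparisons, filled where called. DNAJC3-DT alone is filled in all 3, at 1.77, 1.85 and 1.27, and GOT1-DT and the HEK293T value of DUSP5-DT are left out because their counts were at or near 0.

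DNAJC3 encodes an ER lumenal cochaperone of BiP, also known as p58IPK, and its lncRNA rose in all 3 comparisons. In OCI-AML3 at 4 h DNAJC3-DT (chromosome 13, 95648711 to 95676973, minus strand) was at 0.865, 1.08 and 1.2 CPM in DMSO and 3.63, 3.48 and 3.79 CPM in tunicamycin. At 24 h it was at 1.36, 1.33 and 0.919 CPM in DMSO and 4.19, 3.42 and 5.42 CPM in tunicamycin. The groups do not overlap at either time, and untreated cells, at 0.698 to 2.02 CPM, also lay below every OCI-AML3 tunicamycin library. In HEK293T it was at 2.99, 2.21 and 1.93 CPM in DMSO and 6.14, 5.21 and 5.76 CPM in tunicamycin. The log2 fold changes were 1.77 ± 0.28 (SE, adjusted p = 3.3e-05), 1.85 ± 0.28 (1.2e-05) and 1.27 ± 0.23 (0.00028) by edgeR, and each call held in every alternative. DNAJC3 changed more, by 2.47, 2.64 and 1.82, from 31.2 to 54.1 CPM in DMSO to 123 to 295 CPM in tunicamycin over both lines. The log2 ratio of lncRNA to partner moved by -0.78 ± 0.26 (limma adjusted p = 0.032), -0.89 ± 0.26 (0.012) and -0.57 ± 0.26 (0.14), passing on p but not on size in OCI-AML3. DNAJC3-DT shares no exonic base with another gene.

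EIF2AK3 encodes PERK, the UPR sensor kinase that phosphorylates eIF2α, and it rose in all 3 comparisons while its lncRNA was called at 24 h in OCI-AML3. EIF2AK3-DT (chromosome 2, 88627539 to 88631821, plus strand), whose window holds the 6 CCAAT letters printed above, was at 1.15, 0.266 and 0.765 CPM in DMSO and 1.52, 2.43 and 1.73 CPM in tunicamycin at 24 h. The groups do not overlap, and the log2 fold change was 1.38 ± 0.37 (edgeR adjusted p = 0.0037), but 0.94 without DMSO replicate 2, whose 4 counts were the lowest, which ends the call. At 4 h its values were 0.998, 1.02 and 1.09 CPM against 1.28, 1.83 and 1.68 CPM, which also do not overlap, and the log2 fold change was 0.62 ± 0.34 (adjusted p = 0.18). The value in HEK293T was 0.41 ± 0.31 (adjusted p = 0.39), and PERK mRNA rose by 1.64, 1.5 and 1.3.

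GARS1, the glycyl-tRNA synthetase of cytosol and mitochondria, rose in OCI-AML3 at both times, by 1.49 and 1.01 in log2, the latter at the fold threshold and lost in 18 of 29 alternatives. GARS1-DT (chromosome 7, 30516309 to 30595286, minus strand) was at 15.3, 19.4 and 22.7 CPM in DMSO and 23.8, 25.2 and 23.1 CPM in tunicamycin at 4 h, a log2 fold change of 0.33 ± 0.13 (edgeR adjusted p = 0.057). At 24 h it went from 16.3, 18.9 and 19.8 CPM to 28, 26.3 and 36.5 CPM, which do not overlap, and the log2 fold change of 0.73 ± 0.13 (adjusted p = 8.9e-05) passed on p but not on size. In HEK293T GARS1 stood at 0.99 and GARS1-DT at 0.18. The lncRNA thus changed less than the enzyme's mRNA at 4 h, with a ratio change of -1.15 ± 0.15 (limma adjusted p = 4.7e-06 over all pairs tested). The ratio change was -0.3 ± 0.15 (0.12) at 24 h. In HEK293T it was -0.82 ± 0.15 (0.00041), which passed on p but not on size. The window of GARS1, but not that of its lncRNA, is among those with the C/EBP-ATF letters.

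INSIG1, the ER protein that holds back the sterol-sensing SCAP and SREBP complex, fell with tunicamycin at 24 h in OCI-AML3, and its lncRNA fell with it. INSIG1-DT (chromosome 7, 155295918 to 155297541, minus strand) was at 10.3, 11.3 and 12.1 CPM in DMSO at 24 h and 4.98, 6.01 and 5.64 CPM in tunicamycin. The other OCI-AML3 libraries were at 3.03 to 6.67 CPM, so the DMSO libraries at 24 h were the ones that stood apart. The fall was 1.02 ± 0.2 on the log2 scale (edgeR adjusted p = 0.00025), just past the fold threshold, and the value was -0.99 without DMSO replicate 3 and -0.97 without tunicamycin replicate 1 or with library sizes not scaled by TMM, which end the call. INSIG1 went from 755, 574 and 704 CPM to 181, 172 and 199 CPM, a fall of 1.88. From DMSO at 4 h to DMSO at 24 h, a comparison that shares the DMSO libraries at 24 h, INSIG1-DT rose by 1.21 ± 0.2 (adjusted p = 5.6e-05) and INSIG1 by 2.15. In HEK293T neither was called, at -0.3 for INSIG1-DT and 0.12 for INSIG1.

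BTG1, an antiproliferative gene of quiescent cells, and BTG1-DT rose together at 4 h in OCI-AML3. BTG1-DT (chromosome 12, 92145573 to 92226557, plus strand) was at 0.532, 0.638 and 0.971 CPM in DMSO and 3.7, 3.71 and 3.72 CPM in tunicamycin at 4 h. The log2 fold change was 2.35 ± 0.37 (edgeR adjusted p = 2.8e-05), beside 2.02 for BTG1, which went from 19.6 to 23 CPM to 86.2 to 92.1 CPM. At 24 h the DMSO libraries held 1.87, 1.93 and 2.6 CPM and the tunicamycin libraries 3.17, 1.37 and 2.01 CPM, which overlap, with a log2 fold change of 0.04. The effect thus differed between the times by -2.31 ± 0.51 (interaction, adjusted p = 0.0015), as it did for BTG1, by -1.56. Between the DMSO groups BTG1-DT rose by 1.55 from 4 h to 24 h and BTG1 by 1.14. The lncRNA shares 274 exonic bases, 2.81% of its length, with BTG1.

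NEMP2-DT (chromosome 2, 190534855 to 190569776, plus strand), beside a gene for a nuclear envelope protein, rose with NEMP2 at 24 h in OCI-AML3. It was at 0.79, 1.2 and 1.3 CPM in DMSO and 1.88, 2.36 and 3.69 CPM in tunicamycin, a log2 fold change of 1.28 ± 0.33 (edgeR adjusted p = 0.0028), which was 0.92 without tunicamycin replicate 3, below the fold threshold. NEMP2 rose by 1.16, and in HEK293T NEMP2-DT lay at 0.103 to 0.344 CPM, near the limit that a count of 0 allows. GOT1-DT, beside the gene for the cytosolic aspartate aminotransferase, met the call at 4 h in OCI-AML3 on 1, 1 and 7 counts in tunicamycin against 0, 0 and 0 in DMSO, and not without tunicamycin replicate 3. GOT1 itself held 71, 82 and 50 counts against 14, 13 and 14. At 24 h in OCI-AML3 GOT1 rose by 1.88 (edgeR adjusted p = 9.4e-05) and GOT1-DT was not called. In HEK293T GOT1-DT was at 3.02 to 4.54 CPM, and neither it nor GOT1 was called there.

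**Figure D3:**
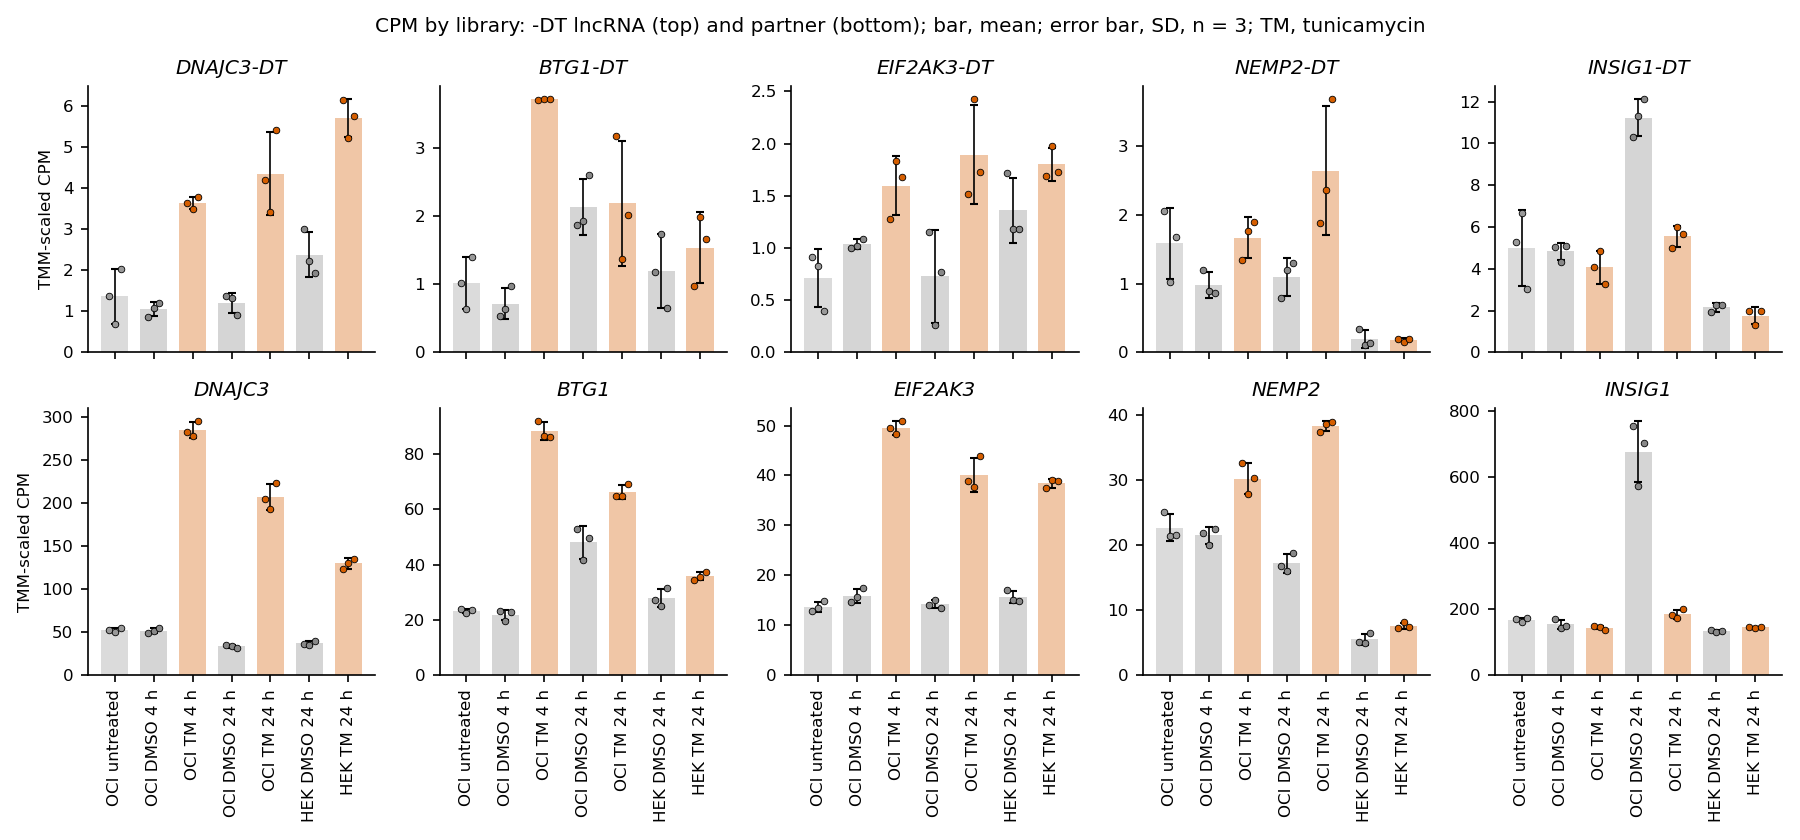
TMM-scaled CPM in each of the 21 libraries (points) for 5 -DT lncRNAs (top) and their partners (bottom), with bars at the group mean and error bars of 1 SD (n = 3), tunicamycin groups in orange. The INSIG1 pair is high in DMSO at 24 h, at 10.3 to 12.1 CPM for the lncRNA, and the DNAJC3 pair is high in every tunicamycin group.

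Apart from GOT1-DT, the remaining -DT lncRNAs called at 4 h in OCI-AML3 changed while their partners were not called. TWF2-DT lies within the span of TWF2, an actin filament capping gene, on the other strand, and shares no exonic base with it. TWF2-DT was at 0.399, 0 and 0.286 CPM in DMSO and 1.4, 1.18 and 1.39 CPM in tunicamycin. Its log2 fold change was 2.49 ± 0.61 (edgeR adjusted p = 0.0027) on 22, 20 and 19 counts against 6, 0 and 5. MAP2K5-DT, beside the kinase upstream of ERK5, went from 0.4 to 0.732 CPM to 1.28 to 1.53 CPM, a rise of 1.2 ± 0.31 (adjusted p = 0.0048) that was 0.96 without DMSO replicate 3. MRNIP-DT, on the other strand within the span of the DNA repair gene MRNIP, shares 194 exonic bases, 13.3% of its length, with MRNIP. MRNIP-DT rose by 1.14 ± 0.43 (adjusted p = 0.044) and lost its call in 15 of 28 alternatives. TWF2-DT and MRNIP-DT are among the 18 that tunicamycin libraries helped to admit. TWF2-DT reached 1 CPM in 3 libraries only, those of tunicamycin at 4 h, so its rise and p there are drawn from its own selection. The 2 that fell rested on more counts. BAIAP2-DT, beside the gene for the membrane-curving adaptor IRSp53, was at 16.3, 14.9 and 13.5 CPM in DMSO and 7.71, 7.43 and 6.93 CPM in tunicamycin, a log2 fold change of -1.01 ± 0.11 (adjusted p = 2.3e-07). Its call is close to the fold threshold, with -0.95 without DMSO replicate 1 and -0.98 without tunicamycin replicate 3. HK2-DT, beside a hexokinase gene, went from 5.92, 5.36 and 5.6 CPM to 2.36, 2.59 and 3.06 CPM, a log2 fold change of -1.08 ± 0.21 (adjusted p = 0.00036) that was -1 without tunicamycin replicate 1, at the threshold. BAIAP2 stood at 0.23 and HK2 at -0.27.

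At 24 h in OCI-AML3, PDCD6IP-DT and RIPK2-DT rose by the largest factors after DNAJC3-DT. PDCD6IP-DT, beside the gene for the ESCRT adaptor ALIX, was at 0.431, 0.199 and 0.306 CPM in DMSO and 0.866, 0.989 and 1.34 CPM in tunicamycin. The log2 fold change was 1.78 ± 0.37 (edgeR adjusted p = 0.00051), while PDCD6IP stood at -0.02 with 147 to 173 CPM. At 4 h its value was -0.73, and in DMSO it fell from 4 h to 24 h by 1.57 on the log2 scale, a comparison that shares the DMSO libraries. RIPK2-DT, beside the kinase that relays signals of the NOD receptors, was at 1.15, 0.731 and 0.689 CPM in DMSO and 2.74, 1.75 and 2.63 CPM in tunicamycin. It rose by 1.47 ± 0.28 (adjusted p = 0.0002), with 0.95 at 4 h and 0.63 in HEK293T, where p passed at 0.0033 and 0.016 but size did not. RIPK2 stood at 0.09 at 24 h, 0.85 at 4 h and 0.53 in HEK293T. Both calls held in every alternative, as did the fall of SAP30-DT.

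7 further -DT lncRNAs rose at 24 h by 1.03 to 1.27 in log2, and each of these calls was lost in at least 1 alternative. SRP14-DT, beside a signal recognition particle gene, was at 3.23, 2.33 and 2.3 CPM in DMSO and 5.05, 5.55 and 5.47 CPM in tunicamycin, a rise of 1.03 ± 0.21 (edgeR adjusted p = 0.00035), while SRP14 stood at -0.29. GMDS-DT, beside the gene for the first enzyme of GDP-fucose synthesis, went from 2.08, 2.66 and 2.22 CPM to 5.34, 4.18 and 5.03 CPM, a rise of 1.06 ± 0.25 (adjusted p = 0.0015). GMDS itself stood at -0.15 there and rose by 1.12 in HEK293T, where GMDS-DT was at 0.73 (adjusted p = 0.057). USP34-DT, beside a deubiquitinase gene, went from 1.44, 1.33 and 1.76 CPM to 3.39, 3.57 and 2.4 CPM, a rise of 1.04 ± 0.26 (adjusted p = 0.0028). DUSP5-DT, beside the gene for a nuclear phosphatase of ERK, went from 0.718, 1.2 and 0.919 CPM to 2.38, 2.36 and 1.62 CPM, a rise of 1.14 ± 0.38 (adjusted p = 0.021). TMEM30A-DT (1.27 ± 0.39), by a lipid flippase subunit gene, and ZRANB2-DT (1.2 ± 0.41), by a splicing factor gene, rose on 6 to 8 and 3 to 9 counts in DMSO. DUSP5-DT, TMEM30A-DT and ZRANB2-DT are also among the 18 that tunicamycin libraries helped to admit. The libraries of WAPL-DT, by the cohesin release factor gene, overlap, with 0.332 to 1.53 CPM in DMSO and 1.3 to 2.46 CPM in tunicamycin, a log2 fold change of 1.07 ± 0.35 (adjusted p = 0.016) that was 0.62 without DMSO replicate 2 and 0.75 without tunicamycin replicate 3. SAP30-DT, by a gene of the SIN3 deacetylase complex, was the other that fell, from 1.72, 2.13 and 2.37 CPM to 0.794, 1.14 and 0.894 CPM, with a log2 fold change of -1.14 ± 0.3 (adjusted p = 0.004). From DMSO at 4 h to DMSO at 24 h, a comparison that shares the DMSO libraries at 24 h, SAP30-DT rose and WAPL-DT fell. USP34-DT and SRP14-DT lost their call in the most alternatives, 13 and 12 of 29. TMEM30A-DT was lost without tunicamycin replicate 3 (adjusted p = 0.055), GMDS-DT without DMSO replicate 1 or 3 or tunicamycin replicate 1 (0.96 to 1), and DUSP5-DT without DMSO replicate 1 or 3 or tunicamycin replicate 1 or 2 (adjusted p = 0.062 to 0.094). ZRANB2-DT was lost without DMSO replicate 3 or tunicamycin replicate 1 or 3 (adjusted p = 0.059 to 0.11). Without tunicamycin replicate 1, 9 -DT lncRNAs were called at 24 h, 8 of them higher.

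Besides DNAJC3-DT, the one -DT lncRNA called in HEK293T was ARHGAP11B-DT. It was at 0.295, 0.411 and 0.35 CPM in DMSO and 1.02, 0.781 and 0.768 CPM in tunicamycin, a log2 fold change of 1.28 ± 0.41 (edgeR adjusted p = 0.028). It shares 68.8% of its exonic bases with other genes, ARHGAP11B included, and ARHGAP11B stood at 0.19. The call was lost without DMSO replicate 1 or 3 or tunicamycin replicate 1, at adjusted p of 0.09, 0.07 and 0.11. RNASEH1-DT, by the ribonuclease H1 gene, passed on p in HEK293T at 0.64 ± 0.12 (adjusted p = 0.00027), from 9.08, 9.08 and 10.3 CPM to 15.7, 13.8 and 15 CPM, but not on size.

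The changes of lncRNA and partner were loosely related. Among the pairs with more than 3 counts for both genes in some library of each group compared, Pearson's r between the 2 log2 fold changes was 0.44 over 174 pairs at 4 h, 0.33 over 173 at 24 h and 0.32 over 180 in HEK293T. Spearman rank correlations were 0.32, 0.24 and 0.29, and 61.5%, 61.3% and 58.3% of pairs had the same sign. Other head-to-head pairs of a lncRNA and a coding gene gave r of 0.31, 0.39 and 0.37 over 415, 411 and 441 pairs, and pairs of 2 coding genes 0.2, 0.29 and 0.14 over 1075, 1083 and 1103 pairs. Over all pairs, those near 0 counts included, r was 0.34, 0.36 and 0.33 for the 187 -DT pairs and 0.31, 0.25 and 0.28 for 460 other lncRNA and coding pairs, so the order of the 2 kinds at 24 h in either line depends on this limit. These are descriptions across gene pairs, which share libraries and scaling and are not independent replicates. Of partners that rose in these -DT pairs above 3 counts, 7, 7 and 6 in number, the lncRNA lay above 0 in 6, 6 and 5 and was itself called higher in 2, 3 and 1. In other lncRNA and coding pairs under the same limit, 13, 14 and 10 partners rose. Their lncRNA lay above 0 in 10, 13 and 9 and was called higher in 7, 4 and 4. In pairs of 2 coding genes 26, 36 and 15 rose, and the other gene was called higher in 6, 4 and 1. Whether these shares differ was not tested.

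**Figure D4:**
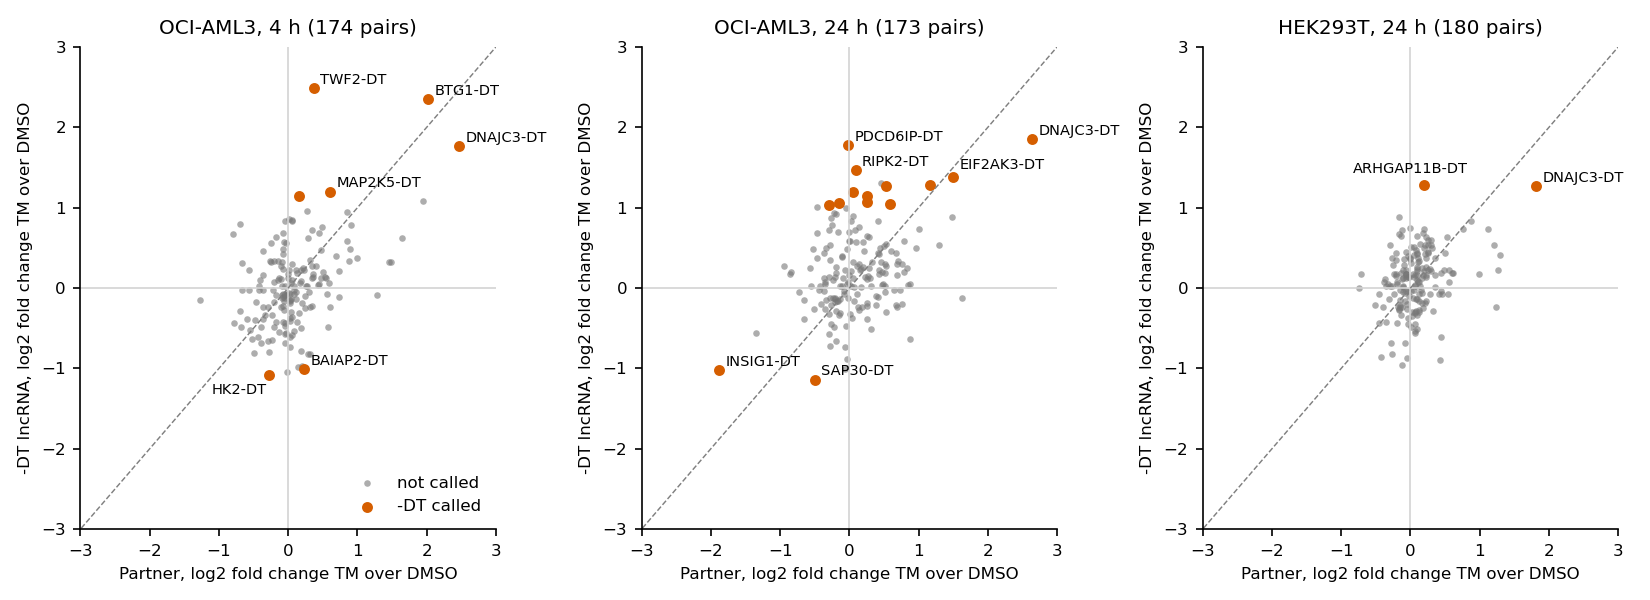
Log2 fold change of tunicamycin over DMSO for each -DT lncRNA (vertical axis) against its partner (horizontal axis) in the 3 comparisons, for 174, 173 and 180 pairs above 3 counts, called lncRNAs in orange and a dashed line of equal change. Called lncRNAs such as PDCD6IP-DT and RIPK2-DT lie near a partner value of 0, and DNAJC3-DT lies at the right with its partner in all 3 panels.

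Over all 186 partners tested, 10 were called at 4 h (9 higher), 10 at 24 h (8 higher) and 6 in HEK293T (6 higher), or 5.38%, 5.38% and 3.23%, beside 5.29%, 7.18% and 2.53% of all genes tested. Beyond the pairs described above, partners rose while their lncRNA was not called. KDM7A, a histone demethylase gene, rose in OCI-AML3 at both times, from 1.86 to 3.26 CPM to 8.43 to 12 CPM at 4 h, a log2 fold change of 1.95, and KDM7A-DT stood at 1.08 (edgeR adjusted p = 0.092) on values of 0.171 to 0.319 CPM against 0.219 to 0.707 CPM. In HEK293T, where KDM7A-DT was higher at 3.95 to 4.47 CPM in DMSO, it went to 6.51 to 8 CPM, 0.74 ± 0.21 (adjusted p = 0.015). CSGALNACT2, a chondroitin sulfate enzyme gene, rose by 1.63 at 24 h in OCI-AML3 and also in HEK293T, and CSGALNACT2-DT stood at -0.12 and 0.54. DUSP5 rose by 1.28 at 4 h, where DUSP5-DT stood at -0.09, and at 24 h the lncRNA, admitted with the help of tunicamycin libraries, rose while DUSP5 was at 0.26. ZFAND2A, whose product acts with the proteasome, rose by 1.45 at 4 h and ZFAND2A-DT, at 14.5 to 18.1 CPM in DMSO and 18.2 to 22.5 CPM in tunicamycin, stood at 0.32 (adjusted p = 0.038). PKD2L2 rose by 1.3 at 24 h (PKD2L2-DT 0.54), LRRC8D, of the volume-regulated anion channel, by 1.24 in HEK293T (LRRC8D-DT -0.24), and ZNF582 by 1.26 in HEK293T (ZNF582-DT 0.22). ISL1 was called at 4 h in OCI-AML3 on 4, 1 and 2 counts against 0 in each DMSO library, and ISL1-DT held no count in OCI-AML3. SLC20A1, a phosphate transporter gene, fell at 4 h by 1.27 and SLC20A1-DT stood at -0.15, and BOLA3, of iron-sulfur cluster assembly, fell at 24 h by 1.35 and BOLA3-DT stood at -0.56.

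Whether lncRNA and partner changed by different factors was tested with limma on their log2 ratio over 1866 pairs, the 187 of -DT lncRNAs and 1679 other head-to-head pairs. The ratio was called in 15 of 187 at 4 h, 4 of them higher, against 6.22% of all pairs. At 24 h it was called in 13, 11 of them higher, against 7.61%, and in HEK293T in 2, both lower, against 2.68%. Of 460 other head-to-head pairs of a lncRNA and a coding gene, the ratio was called in 39 at 4 h (20 higher), 41 at 24 h (31 higher) and 16 in HEK293T (9 higher), or 8.48%, 8.91% and 3.48%. Whether the direction of these calls differs between -DT and other pairs, or between the times, was not tested. At 4 h the ratio fell for BAIAP2-DT by 1.23 ± 0.16 (limma adjusted p = 5.5e-06), where the lncRNA fell. It also fell for DUSP5-DT by 1.52, KDM7A-DT by 1.24, GARS1-DT by 1.15, ZFAND2A-DT by 1.13 and EIF2AK3-DT by 1.09, where the partner rose. For TBC1D22A-DT, TCF12-DT, TMEM263-DT and PRMT5-DT it fell by 1.02 to 1.14 although neither gene was called, and the value of ISL1-DT rests on the ISL1 counts above. Without tunicamycin replicate 3 the ratio was -0.99 for DUSP5-DT, one of the 18 that tunicamycin libraries helped to admit, -0.84 for KDM7A-DT and -0.92 for TBC1D22A-DT, and these calls were lost. Those of EIF2AK3-DT, TCF12-DT, TMEM263-DT and PRMT5-DT were lost without any of several libraries, with values of -0.8 to -1.12. It rose for TWF2-DT by 1.92 ± 0.57 (adjusted p = 0.015), AKAP1-DT by 1.4, B4GAT1-DT by 1.21 and SLC20A1-DT by 1.12. TWF2-DT was admitted only through the tunicamycin libraries at 4 h, so its ratio and p there are drawn from its own selection. The call of TWF2-DT was lost without DMSO replicate 2 (1.31, adjusted p = 0.11) and that of SLC20A1-DT without tunicamycin replicate 3 (0.9). AKAP1, an anchor of protein kinase A on mitochondria, went from 83.5 to 88.8 CPM to 47.7 to 54.1 CPM while AKAP1-DT went from 0.701 to 0.971 CPM to 1.21 to 1.39 CPM, each without overlap.

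At 24 h in OCI-AML3 the ratio rose for PDCD6IP-DT by 1.49 ± 0.25 (limma adjusted p = 0.0001), SRP14-DT by 1.3 ± 0.25 (0.00037) and RIPK2-DT by 1.27 ± 0.25 (0.00053), where the lncRNA rose and the partner was not called. GMDS-DT (1.16) and ZRANB2-DT (1.01) were of the same kind. ZNRD2-DT (1.22), TRMT61A-DT (1.12), DDX19A-DT (1.05), COX10-DT (1.04) and HK2-DT (1.03) passed although neither gene of the pair was called. Each of these 5 ratio calls, and that of ZRANB2-DT, was lost on leaving out some single library, at 0.89 for TRMT61A-DT and 0.91 for ZNRD2-DT without tunicamycin replicate 3, 0.74 for COX10-DT without DMSO replicate 1, 0.81 for DDX19A-DT without DMSO replicate 3, 0.69 for HK2-DT without tunicamycin replicate 2 and 0.85 for ZRANB2-DT without tunicamycin replicate 1. SUCLG2-DT also met the call, but on 0 to 1 counts in DMSO and 1 to 5 in tunicamycin, so that its ratio depends on the pseudocount. TRMT61A-DT, by a tRNA methyltransferase gene, was at 5.24, 3.92 and 5.2 CPM in DMSO and 8.23, 7.76 and 10.1 CPM in tunicamycin, and TRMT61A at 22.7 to 25.3 CPM and 16.5 to 23.1 CPM. The ratio fell for CSGALNACT2-DT by 1.8 ± 0.3 (adjusted p = 8.2e-05), where the partner rose, and for PRKACB-DT by 1.45 ± 0.23 (5.5e-05). PRKACB-DT, by a protein kinase A catalytic subunit gene, went from 2.08, 2.99 and 2.76 CPM to 1.66, 1.52 and 1.84 CPM, and PRKACB from 10.1 to 10.5 CPM to 17.6 to 21.2 CPM. From DMSO at 4 h to DMSO at 24 h, a comparison that shares the DMSO libraries at 24 h, PRKACB-DT rose. In HEK293T the ratio fell for LRRC8D-DT by 1.31 ± 0.45 (adjusted p = 0.048) and ST3GAL1-DT by 1.13 ± 0.24 (0.0023), and the former was -0.85 and not called without DMSO replicate 3. The pseudocount damps the change of a scarce lncRNA, so that where the partner moved the ratio is drawn toward the partner's change with its sign turned. With a prior count of 0.5 in place of 2, the values at 4 h were -1.13 for KDM7A-DT and -1.05 for EIF2AK3-DT, and neither was called. TWF2-DT, at 2.7 (limma adjusted p = 0.053), and B4GAT1-DT, at 1.29 (0.072), also lost their calls at 4 h with this prior count. Of the 30 ratio calls, 11 held in every alternative, those of AKAP1-DT, BAIAP2-DT, GARS1-DT and ZFAND2A-DT at 4 h, of CSGALNACT2-DT, GMDS-DT, PDCD6IP-DT, PRKACB-DT, RIPK2-DT and SRP14-DT at 24 h and of ST3GAL1-DT, and SUCLG2-DT, LRRC8D-DT and B4GAT1-DT were lost in 20, 16 and 12 of them. Without tunicamycin replicate 3, the count at 4 h was 9.

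**Figure D5:**
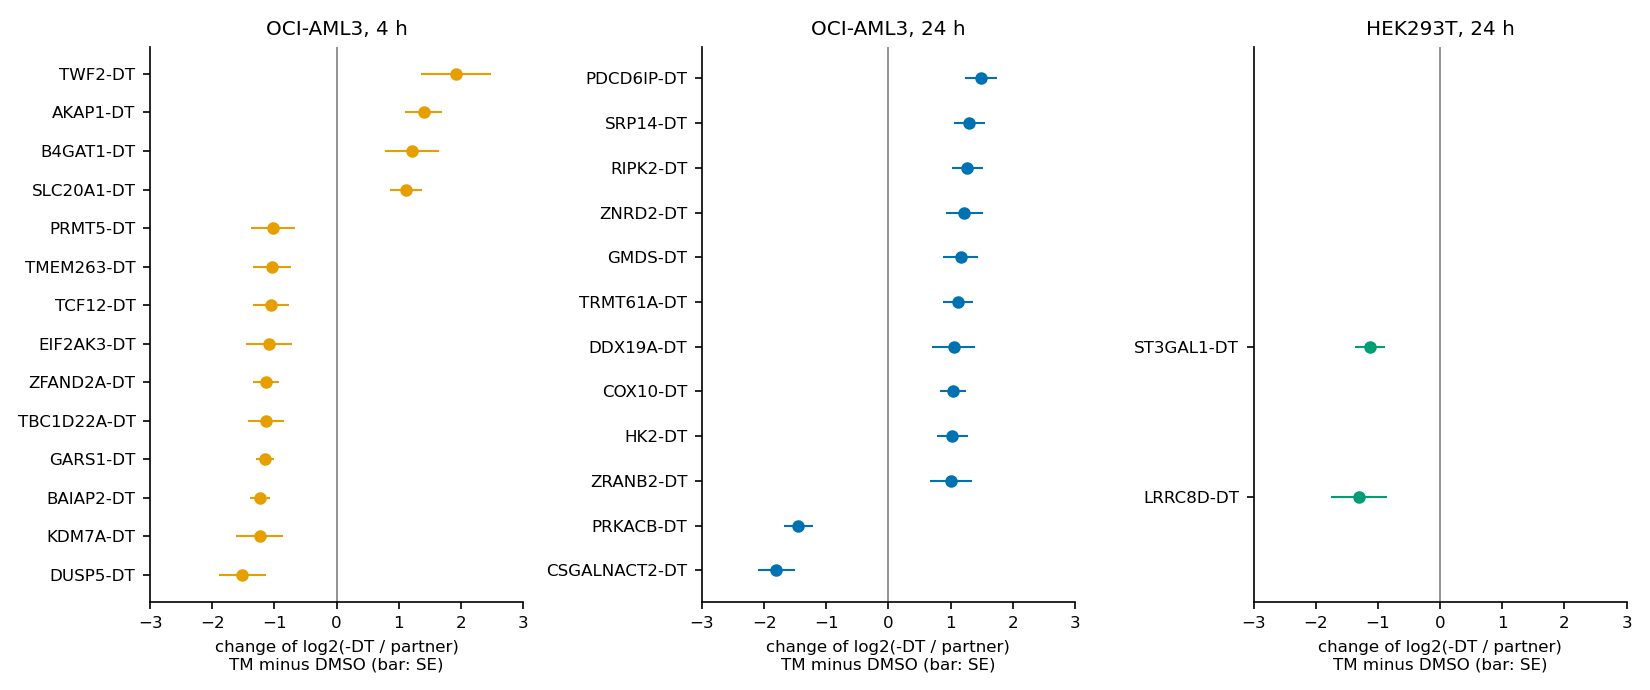
Change with tunicamycin of the log2 ratio of -DT lncRNA to partner (points, bars SE, limma) for pairs whose ratio was called in OCI-AML3 at 4 h, OCI-AML3 at 24 h and HEK293T at 24 h, ISL1-DT and SUCLG2-DT left out for their low counts. Points run from -1.52 to 1.92 at 4 h and from -1.8 to 1.49 at 24 h.

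The effect of tunicamycin differed between 4 h and 24 h in OCI-AML3 for 9 of the 189 by an interaction term, against 5.95% of all genes tested, and between HEK293T and OCI-AML3 at 24 h for 7, against 4.77%. Toward 24 h it was higher for PDCD6IP-DT by 2.51 ± 0.5 (edgeR adjusted p = 0.00065), WAPL-DT by 1.64, NCMAP-DT by 1.49, COX10-DT by 1.29, HK2-DT by 1.26, BAIAP2-DT by 1.05 and TRMT61A-DT by 1.03, and lower for BTG1-DT by -2.31 and SAP30-DT by -1.22. With library sizes not scaled by TMM, 10 of 11 such -DT lncRNAs were higher toward 24 h, in place of 7 of 9. NCMAP-DT shares 74.4% of its exonic bases with other genes, so the reads counted for it may not all be its own. COX10-DT, by the gene for an enzyme of haem A synthesis, was at 7.79, 9.5 and 9.14 CPM in DMSO and 5.8, 6.25 and 6.64 CPM in tunicamycin at 4 h, and at 4.52, 8.37 and 6.81 CPM and 9.24, 11.3 and 13.4 CPM at 24 h. Its libraries do not overlap at either time, lower at 4 h (-0.5, adjusted p = 0.029) and higher at 24 h (0.79, adjusted p = 0.00064), and COX10 stood at -0.25 at 24 h. Between the lines, the effect was higher in HEK293T for SAP30-DT (1.36) and RNASEH1-DT (1.12 ± 0.17, adjusted p = 4.5e-05) and lower for TMEM30A-DT (-1.6), WAPL-DT (-1.51), ST3GAL1-DT (-1.4), PDCD6IP-DT (-1.38) and USP34-DT (-1.16). TMEM30A-DT is one of the 18 that tunicamycin libraries helped to admit, so its value is drawn partly from that selection. RNASEH1-DT was at 14.8, 15.9 and 16.7 CPM in DMSO and 12, 12.7 and 9.5 CPM in tunicamycin at 24 h in OCI-AML3, opposite in direction to the HEK293T values above, and RNASEH1 differed the same way by 0.45. For DNAJC3-DT the interactions were 0.08 ± 0.42 with time (adjusted p = 0.96) and -0.58 ± 0.37 with line (0.28). Without DMSO replicate 2 of OCI-AML3 at 24 h, or DMSO replicate 3 of HEK293T, 4 differed between the lines, and without tunicamycin replicate 1 of OCI-AML3 at 24 h 11 did.

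In the solvent alone, 12 of the 189 were called between DMSO at 4 h and DMSO at 24 h in OCI-AML3, 7 higher and 5 lower at 24 h, against 4.48% of all genes. MICB-DT, by a ligand gene of the NKG2D receptor, rose by 1.76 ± 0.48 (edgeR adjusted p = 0.006), OSER1-DT by 1.34 ± 0.21 (2.5e-05), and MFF-DT, PRKACB-DT, SAP30-DT, BTG1-DT and INSIG1-DT by 1.14 to 1.55. MICB-DT was scarce, reaching 1 CPM in 3 of the 21 libraries, and is one of the 18 that tunicamycin libraries helped to admit. PDCD6IP-DT fell by 1.57 on the log2 scale, KLHL7-DT by 1.51, C2orf49-DT by 1.33 (adjusted p = 6.4e-05), WAPL-DT by 1.05 and ACAD9-DT by 1. OSER1-DT, by an oxidative stress responsive gene, went from 1.61 CPM (mean of 3) to 4.09 CPM and was at 4.39 CPM in tunicamycin at 24 h. Of their partners BTG1 and INSIG1 were called too. Between untreated cells and DMSO at 4 h, edgeR called 0 of the 189 and 0.0% of all genes, limma voom and DESeq2 also called 0, and an unadjusted p under 0.05 was met by 11 of the 189 and 1305 of all genes with edgeR, 12 and 1390 with limma voom and 7 and 1280 with DESeq2.

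The lines differed more than the treatments. In DMSO at 24 h, 104 of the 189 were called, 58 higher in HEK293T and 46 lower, against 51.6% of all genes. Many entered through 1 line only and had to differ, so this count is a description. Its direction is not stable, since of the 143 at 1 CPM in at least 8 libraries 27 were called higher and 41 lower in the same fit, while with library sizes not scaled by TMM 78 of 112 called were higher. 8 held at most 3 counts in every OCI-AML3 library, among them PRDM16-DT, PCDH10-DT, CABP1-DT, MAP3K9-DT, ARNT2-DT, ISL1-DT and FOXF2-DT, with group means of 1.03 to 2.01 CPM in HEK293T in DMSO, and the other was CNN3-DT (1.21 CPM). Their partners include the transcription factor genes ISL1 and FOXF2 of embryonic tissues, which were at 11.8 and 32.5 CPM in HEK293T and 0 in OCI-AML3 in DMSO at 24 h. 6 held at most 3 counts in every HEK293T library, among them FAM111A-DT (2.47 ± 0.576 CPM in OCI-AML3, SD, n = 3), BARX1-DT (2.63 ± 0.221) and DUSP5-DT. FAM111A, a gene whose product restricts some viruses, was at 44.5 CPM in OCI-AML3 and at 0 in HEK293T in DMSO at 24 h. CEBPA-DT, by the gene for the myeloid transcription factor C/EBPα, was at 18.2 ± 3.85 CPM in OCI-AML3 and 2.99 ± 0.382 CPM in HEK293T, a log2 difference of -2.61, beside -6.16 for CEBPA. Pairs also went apart, with C2orf49-DT at 0.982 ± 0.148 CPM in OCI-AML3 and 18.1 ± 0.328 CPM in HEK293T, a log2 difference of 4.21 beside 0.62 for C2orf49, and TFIP11-DT at 3.51 beside 0.3. GALNT7-DT was lower in HEK293T by -3.04 and GALNT7 higher by 1.65. Over 168 pairs above 3 counts, r between the differences of lncRNA and partner was 0.44 and 66.1% had the same sign, and over all 187 pairs r was 0.76 and 67.9% had the same sign, as a description across pairs.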

How the data were processed

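Polyadenylated RNA of 21 libraries was sequenced as paired-end reads, aligned by the authors to GRCh38 with STAR and counted with RSEM on an Ensembl annotation, and the deposited table holds the expected counts that RSEM gave each gene, with no scaling or filter. RSEM divides a read that fits several genes between them, so genes with close copies are less certain. Expected counts were rounded to whole numbers, and 0 columns of per-sample values were left unmapped. Symbols, biotypes and positions came from GENCODE release 44, which held 99.6% of the gene identifiers, and promoter windows from RefSeq on GRCh38.p14.

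After TMM scaling, genes with 1 CPM in at least 3 libraries were fitted in edgeR 4.0.16 (R 4.3.3, quasi-likelihood test), a mean for each of 7 groups and no replicate block, with p-values adjusted by Benjamini-Hochberg over 16556 genes. The tool the study names, limma voom, was an alternative. The SE of a log2 fold change is its size over the root of its F value. Ratios of pairs were fitted with limma 3.58.1 on log2 CPM with a prior count of 2 over 1866 head-to-head pairs, those of opposite strand with starts within 1000 bases, plus the -DT pairs. CPM printed are scaled by TMM.

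Named were up to 10 called -DT lncRNAs per direction and comparison, the 10 of highest mean, those with a called partner, ratio or interaction, and those whose partner is an ER stress gene; others named were chosen after their values were seen. The -DT lncRNAs and the gene and motif lists were chosen with earlier results of these data known. Alternatives were limma voom, DESeq2 1.42.0, edgeR with DESeq2 size factors or with no TMM scaling, 2 other filters, fits of only the groups compared, the replicate number as a block, fits lacking 1 library each and, for ratios, a prior count of 0.5 and a prior variance without a trend. The fits were tested on simulated data. Figures used matplotlib 3.10.9.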

Additional observations from a re-analysis of the deposited data

Results flagged for a closer look

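The effect of tunicamycin differed between 4 h and 24 h in OCI-AML3, by an interaction term of edgeR with an adjusted p no higher than 0.05 and a size beyond 1 in log2, for 9 -DT lncRNAs. This was 4.76% of the 189, against 5.95% of all genes tested. The differences, 24 h minus 4 h, were 2.51 for PDCD6IP-DT, 1.64 for WAPL-DT, 1.49 for NCMAP-DT, 1.29 for COX10-DT, 1.26 for HK2-DT, 1.05 for BAIAP2-DT, 1.03 for TRMT61A-DT, -1.22 for SAP30-DT and -2.31 for BTG1-DT. PDCD6IP-DT, WAPL-DT, SAP30-DT and BTG1-DT were also called between DMSO at 4 h and DMSO at 24 h, so their differences include a shift of the DMSO libraries. The differences of PDCD6IP-DT, NCMAP-DT, COX10-DT and BTG1-DT held in all 29 alternatives. NCMAP-DT shares 74.4% of its exonic bases with other genes, so the reads counted for it may not all be its own. WAPL-DT was lost without tunicamycin replicate 3 at 24 h (adjusted p = 0.055), HK2-DT without tunicamycin replicate 2 at 24 h (0.94), and BAIAP2-DT without DMSO replicate 1 at 4 h, DMSO replicate 3 at 24 h or tunicamycin replicate 1 at 24 h (0.95 to 0.96). SAP30-DT was lost in 13 alternatives and TRMT61A-DT in 12.

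Between the lines at 24 h the effect differed for 7, or 3.7% of the 189, against 4.77% of all genes tested. The HEK293T minus OCI-AML3 values were 1.36 for SAP30-DT, 1.12 for RNASEH1-DT, -1.16 for USP34-DT, -1.38 for PDCD6IP-DT, -1.4 for ST3GAL1-DT, -1.51 for WAPL-DT and -1.6 for TMEM30A-DT. RNASEH1-DT alone of the 7 held in all alternatives. SAP30-DT was lost without HEK293T tunicamycin replicate 1 (adjusted p = 0.052), and WAPL-DT without OCI-AML3 DMSO replicate 2 (0.055) or tunicamycin replicate 3 (0.076). ST3GAL1-DT was lost in 4 alternatives, PDCD6IP-DT in 8, USP34-DT in 10 and TMEM30A-DT in 13. TMEM30A-DT is one of the 18 that tunicamycin libraries helped to admit, so its difference is drawn partly from that selection.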

How the results depend on the processing

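No called value of a -DT lncRNA, partner or ratio changed sign in an alternative. Of 24 calls of -DT lncRNAs with tunicamycin, 8 held in all alternatives and 16 were lost in some, of 16 interactions 5 and 11, of 30 ratios 11 and 19, and of 26 partner calls 24 and 2. With the filter of 1 CPM in 8 libraries, 9 -DT lncRNAs were called at 24 h in OCI-AML3. With no filter beyond 1 count, 4 differed between the lines, and with the compared groups alone 5 differed between the times and 8 ratios were called at 24 h. A prior variance without a trend gave 1 ratio in HEK293T. Leaving out each library gave 1 to 2 calls in HEK293T, 9 to 15 at 24 h and 7 to 10 at 4 h in OCI-AML3, 4 to 11 between the lines and 8 to 11 between the times, and ratios of 1 to 3 in HEK293T, 10 to 18 at 24 h and 9 to 15 at 4 h. The cause of these shifts was not tested. Correlations of same-numbered deviations ran from -0.0811 to 0.116 and those of differently numbered ones from -0.109 to 0.108. Weak correlations cannot settle whether the replicate numbers pair the libraries. A replicate block gave 7, 14 and 2 calls of -DT lncRNAs in the 3 comparisons and 15, 14 and 1 ratios. Without a filter 40 genes were called between DMSO at 4 h and untreated cells, none of them a -DT lncRNA. Depth limits the scarcer -DT lncRNAs, as a level of 1 CPM is about 20 counts or fewer.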
